A study of Mus musculus with 16 samples.

Results

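Acyl-CoA thioesterases are described here through 8 genes measured in mouse quadriceps muscle: Acot1, Acot2, Acot3, Acot4, Acot7, Acot8, Acot9 and Acot13. Probes were assigned to them by matching the RefSeq accession printed on the array to a gene symbol. They had 9 probes among 41174 non-control probes, 2 for Acot4 and 1 for each other gene, out of 17178 genes with a named probe. A probe was tested where 4 or more of the 16 arrays had it well above background, and all 9 were among the 32397 that met this. The 8 genes were chosen by name with the treatment and genotype differences of these arrays already known, and which of those values led to the list is not recorded. Their adjusted p-values are therefore given only to describe size against spread and support nothing.

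Acyl-CoA thioesterases split fatty acyl-CoA esters into a free fatty acid and coenzyme A, and so set the balance between activated and free fatty acids in the cytosol, mitochondria and peroxisomes. Acot1 to Acot6 form a cluster of closely related genes of the alpha/beta-hydrolase fold on mouse chromosome 12, and Acot7, Acot8, Acot9 and Acot13 belong to the unrelated hotdog-fold enzymes. Several family members are known targets of the fatty acid receptor PPAR-alpha in mouse liver, and in muscle they have been proposed to act when fatty acid supply exceeds oxidation.

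The study examined mice lacking the transcription factor Klf15 (KO) and wild-type mice (WT), each given dexamethasone, a synthetic glucocorticoid, or vehicle. Dexamethasone was a single intraperitoneal dose of 2 mg/kg, vehicle was the matching volume, and quadriceps was taken 8 h later from 4 animals of each kind: dexamethasone-treated KO, vehicle-treated KO, dexamethasone-treated WT and vehicle-treated WT. The comparisons address which transcripts respond to the glucocorticoid and how far that depends on Klf15. Amplified cDNA of each animal was hybridised to 1 single-colour array. No source used here gives how the Klf15 allele was altered, in which cells it is lost, or the animals' age, sex and strain. The samples are whole muscle, so fewer cells of a type and less RNA per cell cannot be told apart.

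Levels below are log2 signal minus the array's 75th percentile of signal, a scale on which probes of different genes cannot be ranked against each other. The 75th percentile of intensity was 537 to 1133 and 65.8% to 80.2% of probes were well above background on an array. As a check of the labels, both Klf15 probes separated the KO from the WT arrays, with KO minus WT of -3.80 and -3.84 (log2) under dexamethasone and -3.97 and -3.12 under vehicle. Signal remained in KO, where both probes were well above background on all 4 arrays of each group. With dexamethasone probe A_52_P64383 changed by 1.18 in KO and 1.01 in WT (SE 0.26 each). Probe A_51_P299339 changed by 0.41 and 1.13 (SE 0.28 each). Marker lists are given as the median, over a list's genes, of the deviation from each gene's mean of 16 arrays. The 8 fast-muscle markers were all measured, with list medians of -0.25 to 0.58. Neutrophil markers were high on KO dexamethasone replicate 1 and WT dexamethasone replicate 3, with list medians of 7.37 and 8.63 against 0.98 or less elsewhere, and the 4 erythroid markers measured were also highest there (1.43 and 1.84). Of 7 macrophage markers 6 were measured, at -0.49 to -0.09 in dexamethasone-treated WT muscle and 0.06 to 0.63 in vehicle-treated WT muscle, without overlap, and at -0.58 to 0.37 and -0.10 to 0.32 in dexamethasone- and vehicle-treated KO muscle. The 5 endothelial markers were at -0.27 to -0.08 in dexamethasone-treated KO muscle and 0.28 to 0.46 in vehicle-treated KO muscle, without overlap, and at -0.20 to 0.01 and -0.31 to 0.20 in dexamethasone- and vehicle-treated WT muscle. The part of these lists in the changes with dexamethasone was not tested. The arrays lay on 8 slides. Scaling arrays to their median in place of the 75th percentile moved the median change of all probes under dexamethasone in WT to 0.17, against -0.07. It also moved the share of higher probes among those called to 80.9%, against 44.7%. For KO against WT that share was 14.9% against 64.2% under dexamethasone, and 15.1% against 41.5% averaged over treatments. With quantile normalization the shares were 56.4% under dexamethasone in WT and 50.9% for KO against WT under dexamethasone.

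The 250 bases before the transcription start of Acot1, Acot2 and Acot7 are shown because Acot1 and Acot7 were called lower in KO muscle and Acot2 is the neighbour and close copy of Acot1, and Klf15 is known to bind CACCC and GC-rich boxes. They are RefSeq sequences of build GRCm38.p6, all on the plus strand, at chr12:84009252-84009501 for Acot1, chr12:83987611-83987860 for Acot2 and chr4:152185358-152185607 for Acot7. Capitals mark CACCC and GGGCGG or their reverse complements.
Acot1: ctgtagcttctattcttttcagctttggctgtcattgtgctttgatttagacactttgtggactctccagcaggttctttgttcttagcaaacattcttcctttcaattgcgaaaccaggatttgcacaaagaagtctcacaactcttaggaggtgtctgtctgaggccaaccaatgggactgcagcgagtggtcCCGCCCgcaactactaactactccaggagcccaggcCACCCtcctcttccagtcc
Acot2: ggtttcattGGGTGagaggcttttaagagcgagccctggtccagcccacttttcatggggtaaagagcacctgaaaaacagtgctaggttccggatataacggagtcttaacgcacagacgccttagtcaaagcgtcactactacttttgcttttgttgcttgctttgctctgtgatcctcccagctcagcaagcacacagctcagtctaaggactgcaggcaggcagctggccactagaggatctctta
Acot7: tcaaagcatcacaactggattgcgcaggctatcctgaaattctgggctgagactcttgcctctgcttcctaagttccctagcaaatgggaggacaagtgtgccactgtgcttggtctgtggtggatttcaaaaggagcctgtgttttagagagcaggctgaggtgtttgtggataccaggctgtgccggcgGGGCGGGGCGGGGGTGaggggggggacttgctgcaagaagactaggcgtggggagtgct

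Acot1 held CACCC 19 bases and the reverse complement of GGGCGG 55 bases before the start. Acot7 held the reverse complement of CACCC at 48 bases and GGGCGG at 54 and 59 bases, these last copies overlapping. Acot2 held 1 reverse complement of CACCC, at 241 bases. Acot8, not called between genotypes, also held both boxes, CACCC at 158 bases and the reverse complement of GGGCGG at 175. Acot9 held only the reverse complement of GGGCGG, at 22 bases, and Acot3 and Acot4 held neither box. Outside the 8 genes, Acot5 held only the reverse complement of CACCC, and Acot11 held the 2 boxes in different windows. Any part of these boxes in the differences was not tested. Searched on both strands, CACCC was present in 52.1% and GGGCGG in 33.0% of 32536 distinct promoter windows of this length, so these matches are common. TGTTCT, the hexamer of the glucocorticoid response element, was found in Acot1 at 171 bases and in 16.03% of windows. Acot13 was not searched.

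Among the 8 genes, Acot1 had the largest change with dexamethasone in WT muscle and the largest difference between genotypes, under dexamethasone and under vehicle. In WT muscle dexamethasone raised Acot1, Acot2 and Acot9 and lowered none of the 8, against 12% of all probes called and 5.35% of all probes called higher (limma, adjusted p under 0.05). In KO muscle none of the 8 was called, against 10.4% of all probes. KO muscle had less Acot1 and Acot7 than WT muscle under dexamethasone, where 2.79% of all probes were called and 1% were called lower. Under vehicle none of the 8 was called between genotypes, against 0.235% of all probes. Averaged over treatments Acot1 and Acot7 were lower in KO, against 1.62% of all probes called and 0.948% called lower. The difference between the dexamethasone responses of KO and WT was called for 0 of the 8 and for 0% of all probes, although 4196 probes had an unadjusted p under 0.05. Without overlap between the 4 arrays of each group were 0 of the 8 genes with dexamethasone in KO (15.8% of all probes), Acot1 and Acot8 with dexamethasone in WT (18.2%), and Acot1 and Acot7 in KO against WT, lower both under dexamethasone (4.09% of probes) and under vehicle (3.59%). The median change of the 8 genes was 0.36 in KO and 0.43 in WT with dexamethasone, beside 0.05 and -0.07 over all probes. KO minus WT was -0.10 under dexamethasone and -0.34 under vehicle at the median, beside 0.05 and -0.05 over all probes.

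**Figure D1:**
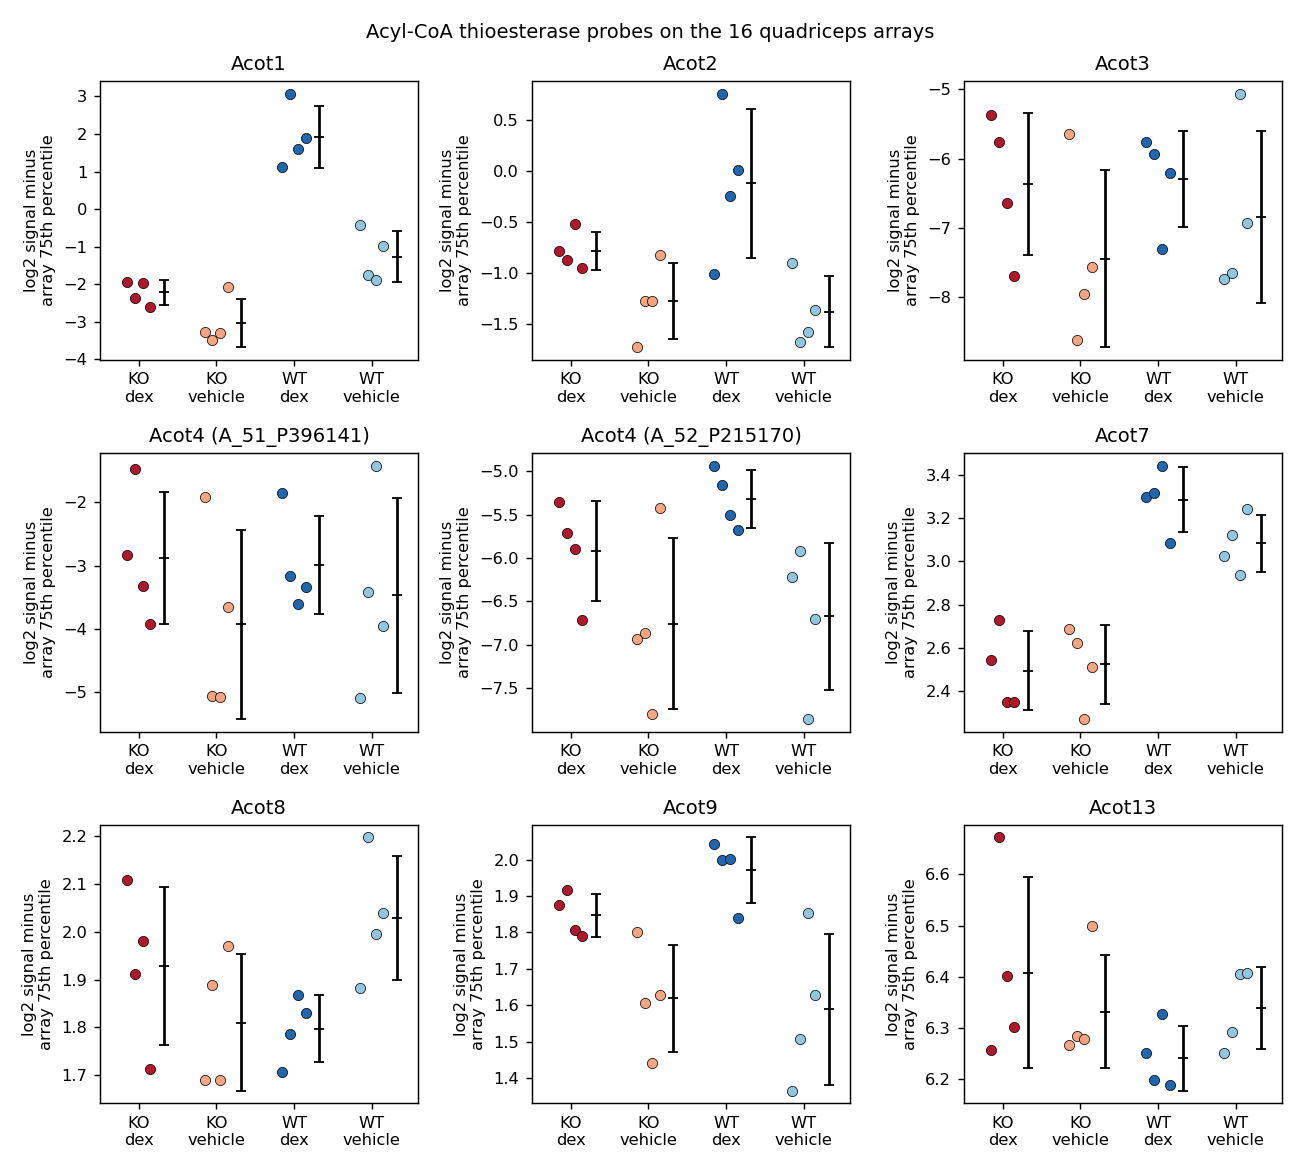
Level of each of the 9 probes (y axis, log2 signal minus the array's 75th percentile) on the 4 arrays of each group (points, replicates 1 to 4 from left to right), with the group mean and SD to the right of the points. The KO arrays of Acot1 and Acot7 all lie below their WT arrays, and the Acot3 and Acot4 groups overlap widely, apart from WT dexamethasone and WT vehicle with probe A_52_P215170.

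Acot1 encodes a cytosolic thioesterase for long-chain acyl-CoA. Its levels on replicates 1 to 4 were -1.94, -2.37, -1.96 and -2.61 in dexamethasone-treated KO muscle and -3.26, -3.50, -3.29 and -2.08 in vehicle-treated KO muscle. In WT muscle they were 1.13, 3.07, 1.60 and 1.89 with dexamethasone and -0.43, -1.75, -1.88 and -0.99 with vehicle. Every KO array lay below every WT array, whatever the treatment, and the KO groups overlapped because vehicle replicate 4 was as high as the dexamethasone arrays. All 8 KO arrays lay below all 8 WT arrays for 0.446% of all probes. In order of mean level the groups ran WT dexamethasone, WT vehicle, KO dexamethasone and KO vehicle, and only the last neighbours overlapped.

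The rise of Acot1 with dexamethasone was 9.11-fold in WT (log2 change 3.19, SE 0.43, adjusted p 0.000399), rank 22 of 32397 by size of rise. In KO it was 1.76-fold (0.82, SE 0.43, adjusted p 0.314), with a 95% interval of -0.12 to 1.75 on the log2 scale. The difference between these responses was -2.37 (SE 0.61, adjusted p 0.153), and it passed only with slide as a random block (-2.63, adjusted p 0.0311). Acot1 was 17.7-fold lower in KO than in WT under dexamethasone (-4.14, SE 0.43, adjusted p 0.000143). It was 3.41-fold lower under vehicle (-1.77, SE 0.43, adjusted p 0.176), where the 4 KO and 4 WT arrays did not overlap. Averaged over treatments it was 7.76-fold lower (-2.96, SE 0.31, adjusted p 0.000102).

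Within slides, the rise of Acot1 in WT was 4.06 on the only slide with both WT groups. In KO it was 0.15, 0.68 and 0.89 on 3 slides. KO minus WT was -3.85 under dexamethasone on 1 slide and -0.33, -2.86 and -1.38 under vehicle on 3 slides, so the sign held on each. With slide as a fixed block, to which the 3 arrays alone on a slide add nothing, the differences from WT were -4.35 under dexamethasone (adjusted p 0.0744) and -2.90 averaged (adjusted p 0.0781). No call of Acot1 was lost when any 1 array was left out.

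Acot2 encodes the closely similar mitochondrial enzyme. Its levels were -0.78, -0.87, -0.52 and -0.95 in dexamethasone-treated KO muscle and -1.73, -1.27, -1.27 and -0.82 in vehicle-treated KO muscle. They were -1.01, 0.76, -0.24 and 0.01 in dexamethasone-treated WT muscle, against -0.90, -1.67, -1.58 and -1.36 in vehicle-treated WT muscle. Replicates 2, 3 and 4 of dexamethasone-treated WT were above all the others, replicate 1 was not, and all neighbouring groups overlapped.

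Acot2 rose 2.39-fold with dexamethasone in WT (1.26, SE 0.31, adjusted p 0.0167). The call was lost without WT vehicle replicate 2 (1.16, adjusted p 0.0580), with only the WT arrays in the fit (adjusted p 0.0829) and with slide as a fixed block (1.66, adjusted p 0.0685). In KO the change was 0.49 (SE 0.31, adjusted p 0.419), and the responses differed by -0.77 (SE 0.43, adjusted p 0.477). KO minus WT was -0.66 under dexamethasone (95% interval -1.32 to 0.00, adjusted p 0.326) and 0.11 under vehicle (-0.56 to 0.77, adjusted p 0.977). The within-slide rise in WT was 2.13.

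Acot1 and Acot2 went up and down together between animals of the same group. After subtracting group means, the Pearson correlation over the 16 arrays was 0.882, and 0.763 without subtraction. These points share an array, its scaling and possibly cross-hybridising copies, and the 2 genes are neighbours in the cluster. WT dexamethasone replicate 2 was highest for both genes, and KO vehicle replicate 4 was highest of its group for both. Slow-muscle markers, all 7 measured, varied in the same direction. Their list median was 2.26 on WT dexamethasone replicate 2 and 1.01 on KO vehicle replicate 4, each the highest of its group. Over replicates 1 to 4 it was 0.11, 2.26, -0.56 and 0.83 in dexamethasone-treated WT muscle. In vehicle-treated WT muscle it was 0.74, -1.42, -1.31 and -1.34, so these markers were lower on 3 of its arrays than on any dexamethasone array. In KO muscle it was -1.23 to 1.70 with dexamethasone and -1.08 to 1.01 with vehicle. The summed linear level of the slow-muscle markers relative to the 75th percentile was 256 to 378 in dexamethasone-treated KO muscle and 158 to 313 in vehicle-treated KO muscle. In WT muscle it was 249 to 414 with dexamethasone and 211 to 308 with vehicle. The array highest in the slow-muscle list was also highest in Acot1 in 4 of 4 groups and in Acot2 in 3 of 4, with within-group correlations of 0.619 and 0.584 over 16 arrays. With the slow-muscle median as a covariate, an alternative chosen after the data were seen, Acot1 changed by 2.65 with dexamethasone in WT (adjusted p 0.00203), by -4.07 in KO against WT under dexamethasone (adjusted p 6.87e-05) and by -2.06 under vehicle (adjusted p 0.0490). Acot2 then changed by 0.90 with dexamethasone in WT (adjusted p 0.0707).

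**Figure D2:**
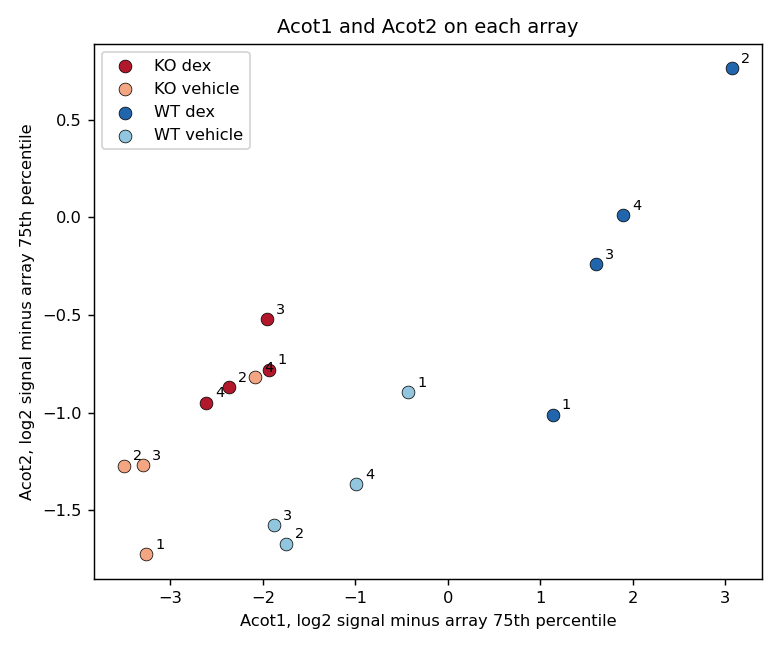
Acot1 level (x axis) against Acot2 level (y axis), both as log2 signal minus the array's 75th percentile, for the 16 arrays, with colours for groups and digits for replicate numbers. WT dexamethasone replicate 2 lies at the top right for both genes, and KO arrays lie to the left of WT arrays with Acot2 levels of -1.73 to -0.52.

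The RefSeq order of genes around the cluster is Riox1, Acot2, Acot1, Gm40474, Acot4, Acot3, Acot5, Gm8385, Acot6 and Dnal1. Acot3 and Acot4 encode peroxisomal enzymes, Acot3 for long-chain acyl-CoA and Acot4 for succinyl-CoA and other dicarboxylic esters in mouse. The Acot3 probe was well above background on 5 of 16 arrays, 1 or 2 in each group. Its levels were -7.69 to -5.38 in dexamethasone-treated KO muscle, -8.62 to -5.65 in vehicle-treated KO muscle, -7.30 to -5.75 in dexamethasone-treated WT muscle and -7.74 to -5.06 in vehicle-treated WT muscle. The groups overlapped throughout. Its changes were 1.08 in KO (SE 0.72) and 0.55 in WT (SE 0.72), with adjusted p 0.462 and 0.680. The 95% interval of KO minus WT under dexamethasone, -1.63 to 1.49, left room for differences of more than 1 log2 unit either way.

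The Acot4 probe A_51_P396141 was well above background on all 16 arrays. Its levels were -2.83, -1.47, -3.31 and -3.92 in dexamethasone-treated KO muscle and -1.92, -5.06, -5.07 and -3.65 in vehicle-treated KO muscle. In WT muscle they were -1.86, -3.17, -3.60 and -3.33 with dexamethasone and -5.08, -3.42, -1.42 and -3.96 with vehicle. The 3 arrays of slide 7, which hold 1 animal of each group but dexamethasone-treated WT, and WT dexamethasone replicate 1 were highest, at -1.92 to -1.42 against -5.08 to -2.83 on the other 12 arrays. Acot3 on those 4 arrays was -5.76 to -5.06 against -8.62 to -5.38 elsewhere, and Acot9 1.80 to 2.04 against 1.36 to 2.00.

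With this probe Acot4 changed by 1.04 in KO (SE 0.84, adjusted p 0.562) and 0.48 in WT (SE 0.84, adjusted p 0.768). Within slides the change was 0.82, 1.15 and 0.45 in KO and 0.79 in WT, and with slide as a fixed block it was 0.83 in KO (adjusted p 0.0490). The other probe, A_52_P215170, was well above background on 7 of 16 arrays. It changed by 1.35 in WT (SE 0.49, adjusted p 0.0929), where the 4 dexamethasone arrays, at -5.67 to -4.93, lay above the 4 vehicle arrays, at -7.85 to -5.91. Ranges were apart in this comparison for 18.2% of all probes. That change passed with median scaling (1.60, adjusted p 0.0471), quantile normalization (1.71, adjusted p 0.0285) and the deposited values (0.41, adjusted p 0.0479), and was 0.10 with another background correction (adjusted p 0.703). Acot3, Acot4 and Acot9 varied together, with within-group correlations over 16 arrays of 0.866 for Acot3 with Acot4, 0.841 for Acot4 with Acot9 and 0.740 for Acot3 with Acot9. What part slide has in this was not tested.

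**Figure D3:**
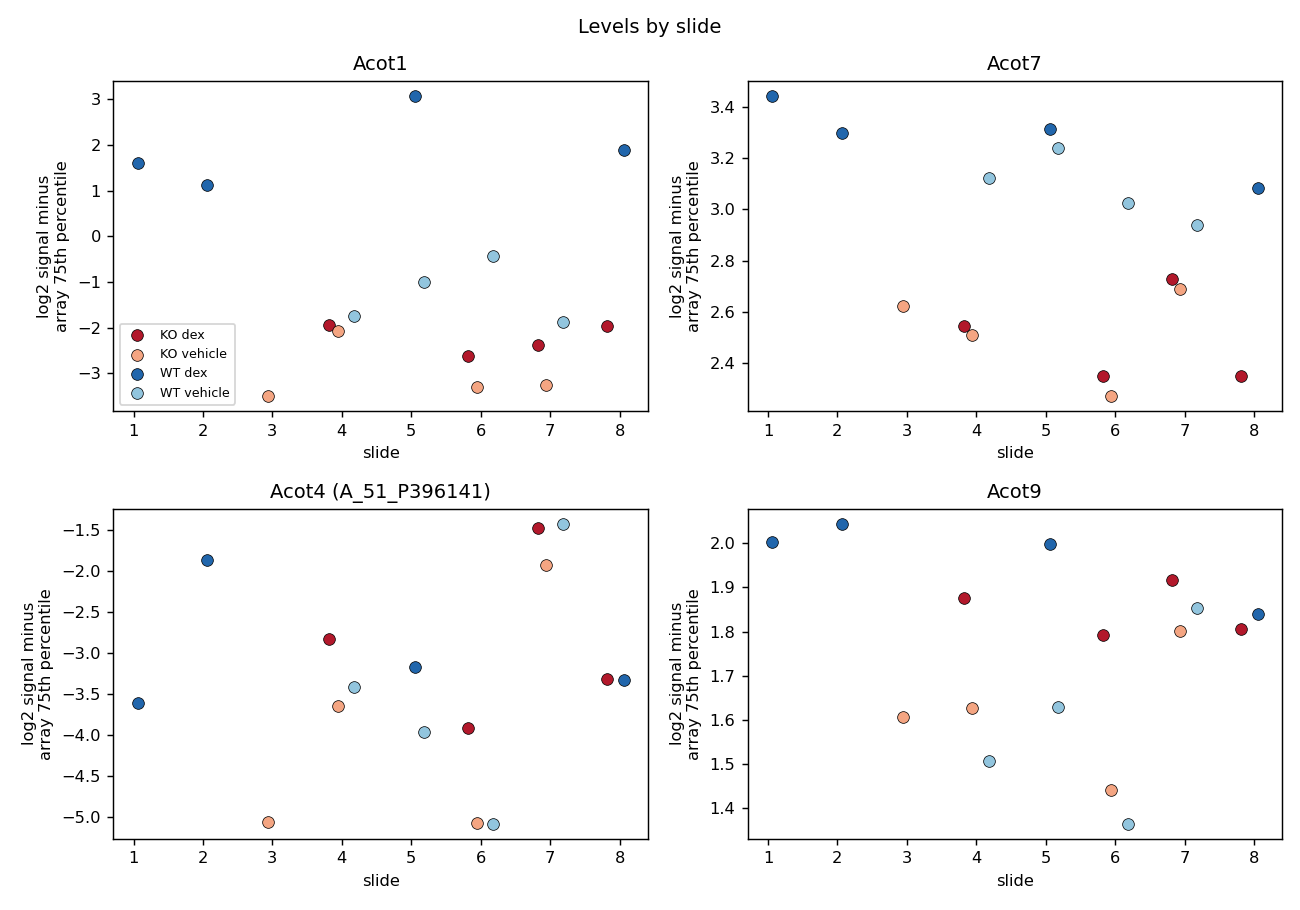
Levels of Acot1, Acot7, Acot4 and Acot9 (y axes, log2 signal minus the array's 75th percentile) by slide (x axis, slides 1 to 8), with colours for groups. For Acot4 the 3 arrays of slide 7 and the WT dexamethasone array of slide 2 lie at -1.92 or above, and for Acot7 the KO arrays lie below the WT arrays on slides 4, 6, 7 and 8.

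Other genes of the cluster were not called in any comparison where measured. Acot5, a peroxisomal thioesterase for medium-chain esters, changed by -0.77 in KO (SE 0.89) and -0.91 in WT (SE 0.89). Acot6 was not analysed here. Of the genes that flank the cluster, named for their position after their values were seen, Riox1, a ribosomal oxygenase gene next to Acot2, rose by 0.70 in WT (SE 0.14, adjusted p 0.00458) and changed by 0.36 in KO (adjusted p 0.119). Dnal1, a dynein light chain gene at the other end, changed by -0.24 in WT (adjusted p 0.405) and -0.03 in KO (adjusted p 0.955). Because the copies of the cluster are closely similar and the probe sequences were not used here, how far a probe reads its neighbours is unknown, and the assignment of signal to a single gene is uncertain for Acot1 to Acot5.

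Acot7 encodes a cytosolic thioesterase known for its abundance in brain. Its levels were 2.55, 2.73, 2.35 and 2.35 in dexamethasone-treated KO muscle and 2.69, 2.62, 2.27 and 2.51 in vehicle-treated KO muscle. In WT muscle they were 3.30, 3.31, 3.44 and 3.08 with dexamethasone and 3.03, 3.12, 2.94 and 3.24 with vehicle. All 8 KO arrays lay below all 8 WT arrays, as for 0.446% of all probes, and within each genotype the treatments overlapped. Acot7 was 1.73-fold lower in KO under dexamethasone (-0.79, SE 0.12, adjusted p 0.00311) and 1.47-fold lower under vehicle (-0.56, SE 0.12, adjusted p 0.105). Averaged over treatments it was 1.60-fold lower (-0.67, SE 0.09, adjusted p 0.000788).

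The dexamethasone response of Acot7 was -0.03 in KO (adjusted p 0.938) and 0.20 in WT (adjusted p 0.325). With median scaling it was 0.45 in WT (adjusted p 0.0963). The genotype difference was -0.73 within the slide that held both dexamethasone groups and -0.61, -0.75 and -0.25 within 3 slides under vehicle. It was no longer called under dexamethasone with only the groups compared in the fit (adjusted p 0.0619) or with slide as a fixed block (-0.66, adjusted p 0.176), and the averaged difference with the block was -0.61 (adjusted p 0.113). It was called under vehicle with slide as a random block (adjusted p 0.00897). Leaving out any 1 array did not change a call of Acot7. Of 8 nerve and Schwann cell markers 5 were measured, and Sox10, Nefm and Snap25 were not. The summed level of the 5 was 1.93 to 3.41 in dexamethasone-treated KO muscle, 2.09 to 3.42 in vehicle-treated KO muscle, 1.86 to 3.05 in dexamethasone-treated WT muscle and 1.85 to 2.42 in vehicle-treated WT muscle, and the ranges overlapped.

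Acot9 encodes a mitochondrial thioesterase, and Acot10 is its closely similar intronless copy, so that signal may be shared between their probes. Acot9 levels were 1.88, 1.92, 1.81 and 1.79 in dexamethasone-treated KO muscle and 1.80, 1.61, 1.44 and 1.63 in vehicle-treated KO muscle. In WT muscle they were 2.04, 2.00, 2.00 and 1.84 with dexamethasone and 1.36, 1.51, 1.85 and 1.63 with vehicle. Vehicle replicate 3 reached the lowest dexamethasone array in WT, and vehicle replicate 1 did so in KO. The rise was 1.30-fold in WT (0.38, SE 0.11, adjusted p 0.0327). The change in KO was 0.23 (SE 0.11, adjusted p 0.235). The responses differed by -0.15 (SE 0.15, adjusted p 0.718). The call in WT was lost without any 1 of WT vehicle replicates 1, 2 and 4 and WT dexamethasone replicates 1, 2 and 3, with adjusted p up to 0.100. It was also lost under 8 of 14 other settings, with adjusted p up to 0.156, among them the deposited values (0.27, adjusted p 0.145), quantile normalization (0.31, adjusted p 0.0759), the replicate block (adjusted p 0.0787) and leaving out both arrays with high neutrophil markers (0.37, adjusted p 0.0871). With slide as a random block the change in KO was called (0.24, adjusted p 0.0285). Within slides it was 0.25, 0.35 and 0.12 in KO and 0.37 in WT. Acot10 changed by 0.07 in KO (SE 0.12, adjusted p 0.823) and 0.34 in WT (SE 0.12, adjusted p 0.0728).

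Acot8 encodes a peroxisomal thioesterase of broad substrate range. Its levels were 2.11, 1.91, 1.98 and 1.71 in dexamethasone-treated KO muscle and 1.69, 1.89, 1.69 and 1.97 in vehicle-treated KO muscle. In WT muscle they were 1.71, 1.79, 1.87 and 1.83 with dexamethasone and 1.88, 2.20, 1.99 and 2.04 with vehicle. The WT ranges were just apart, with dexamethasone lower (-0.23, SE 0.10, adjusted p 0.179), but the change was 0.01 with median scaling. With slide as a random block it was called (-0.25, adjusted p 0.0285). In KO the change was 0.12 (SE 0.10, adjusted p 0.608), and the responses differed by 0.35 (SE 0.15, adjusted p 0.341). KO minus WT was 0.13 under dexamethasone and -0.22 under vehicle (adjusted p 0.618 and 0.657).

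Acot13, a small thioesterase associated with mitochondria, spanned 6.19 to 6.67 over all 16 arrays. Its levels were 6.26 to 6.67 in dexamethasone-treated KO muscle, 6.27 to 6.50 in vehicle-treated KO muscle, 6.19 to 6.33 in dexamethasone-treated WT muscle and 6.25 to 6.41 in vehicle-treated WT muscle. All 4 groups overlapped. The change with dexamethasone was 0.08 in KO (95% interval -0.13 to 0.28) and -0.10 in WT (-0.31 to 0.11). KO minus WT was 0.17 under dexamethasone (-0.04 to 0.38) and -0.01 under vehicle (-0.22 to 0.20). With median scaling the change in WT was 0.15 and KO minus WT under dexamethasone was -0.02.

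**Figure D4:**
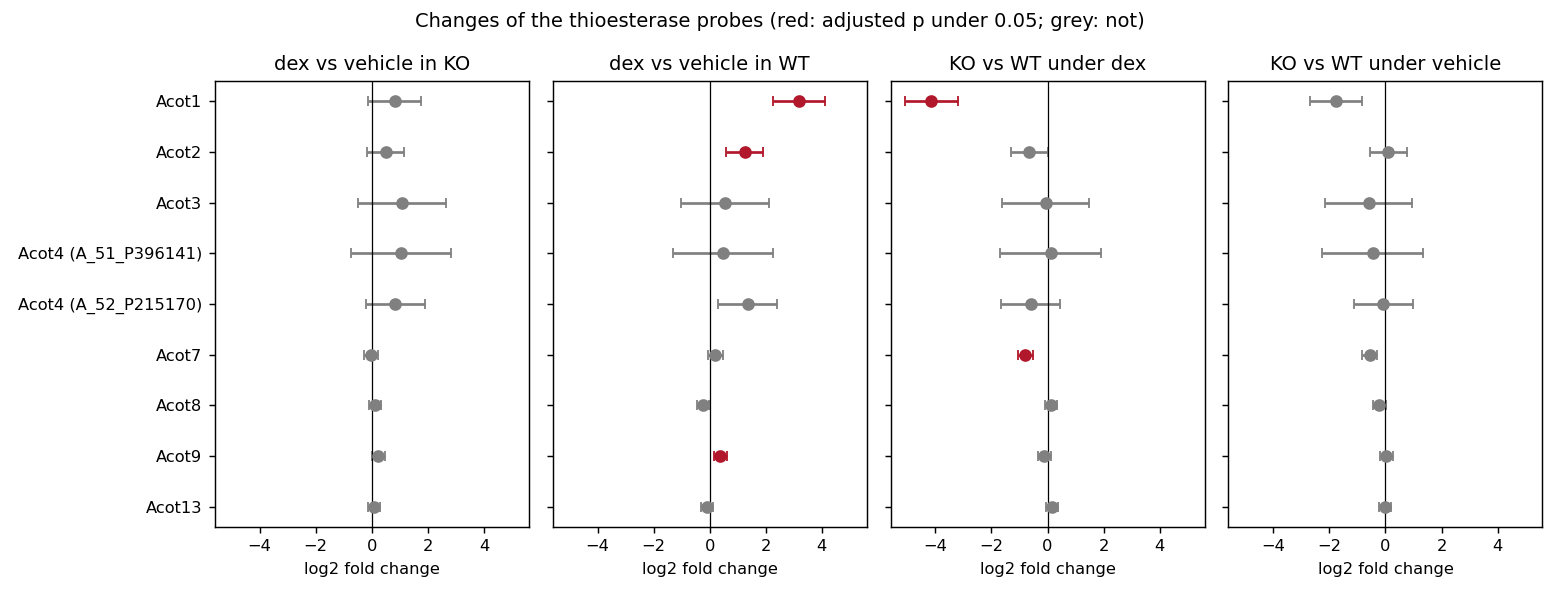
Log2 fold change (x axis) of each of the 9 probes (y axis) with its 95% interval, for dexamethasone against vehicle in KO and in WT and for KO against WT under dexamethasone and under vehicle. Red points passed an adjusted p of 0.05: Acot1, Acot2 and Acot9 with dexamethasone in WT, and Acot1 and Acot7 in KO against WT under dexamethasone.

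Of 12 other thioesterases 8 were tested, and none was called higher in any comparison. Of all probes, 5.2% in KO and 5.35% in WT were called higher with dexamethasone. For KO against WT the shares called higher were 0.0278% under vehicle, 1.79% under dexamethasone and 0.673% averaged, and for the interaction 0%. Acot11, a thioesterase of brown fat with a lipid-binding START domain, was lower in KO with probe A_51_P226453. Its levels were -0.41, -0.78, -0.76 and -0.89 in dexamethasone-treated KO muscle and -0.93, -0.67, -0.86 and -0.48 in vehicle-treated KO muscle, against 1.10, 0.28, 0.62 and 0.60 in dexamethasone-treated WT muscle and 0.21, 0.04, 0.10 and 0.42 in vehicle-treated WT muscle. No KO array reached a WT array, as for 0.446% of all probes. The difference was -1.36 under dexamethasone (SE 0.17, adjusted p 0.000594) and -0.93 under vehicle (SE 0.17, adjusted p 0.0375). Its other probe, A_51_P141741, was well above background on 8 of 16 arrays and gave -0.35 and -0.66 (SE 0.60 each, adjusted p 0.861 and 0.849). The adipocyte markers, all 7 measured, had summed levels of 178 to 385 and 188 to 417 in dexamethasone- and vehicle-treated KO muscle, and 136 to 331 and 163 to 245 in dexamethasone- and vehicle-treated WT muscle.

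Them6 fell with dexamethasone in KO (-0.76, SE 0.19, adjusted p 0.0209), against a change of -0.13 in WT (adjusted p 0.717), and the responses differed by -0.63 (adjusted p 0.350). Ppt1, a lysosomal palmitoyl-protein thioesterase, fell with dexamethasone in WT (-0.28, SE 0.08, adjusted p 0.0362). It changed by -0.08 in KO (adjusted p 0.682), and the responses differed by 0.20 (adjusted p 0.471). Them4, which acts on long-chain acyl-CoA, changed by -0.09 in KO (adjusted p 0.756) and -0.32 in WT (adjusted p 0.0892). Ppt2 changed by -0.24 in KO and 0.17 in WT (adjusted p 0.548 and 0.604). Acot12, a cytosolic acetyl-CoA hydrolase of liver, had signal near background in vehicle-treated KO and dexamethasone-treated WT muscle, with 0 of 4 arrays well above it in each, and gave no call. Them5, Baat and Olah were well above background on at most 3 arrays and were not tested.

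Of 15 acyl-CoA synthetases, which act opposite to thioesterases, 2 rose and 1 fell with dexamethasone in KO, while 4 rose and none fell in WT, beside 10.4% of all probes called in KO and 12% in WT. Their median change was 0.16 in KO and 0.11 in WT, beside 0.05 and -0.07 over all probes. Acsl3 rose by 1.13 in KO and 0.85 in WT, and Acsl1, the main long-chain enzyme of muscle, by 0.52 and 0.54. Acss1, which activates acetate in mitochondria, rose by 1.05 in WT, and Acsl5 fell by 0.83 in KO. None of the 15 was called between genotypes, beside 0.235% of all probes called under vehicle, 2.79% under dexamethasone and 1.62% averaged over treatments. Of 13 tested genes of coenzyme A synthesis and breakdown, Pank3 rose and Dcakd fell with dexamethasone in KO and Pank1, a pantothenate kinase, rose in WT by 1.42. These are 2 of 13 in KO and 1 of 13 in WT, with medians of 0.02 and -0.08, beside 10.4% and 12% of all probes called and medians of 0.05 and -0.07. Pank1 changed by 0.40 in KO (adjusted p 0.604), and its responses differed by -1.03 (adjusted p 0.392). Pank3, another pantothenate kinase, was higher in KO than in WT under dexamethasone (0.66, SE 0.12, adjusted p 0.0105). With dexamethasone Pank3 changed by -0.10 in WT (adjusted p 0.648), and its responses differed by 0.63 (adjusted p 0.170).

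Of 21 known PPAR targets of fatty acid use, 5 rose in KO and 9 in WT with dexamethasone, and none fell, beside 5.2% of all probes called higher in KO and 5.35% in WT. Their median change was 0.15 in KO and 0.37 in WT, beside 0.05 and -0.07 over all probes. The lipid droplet gene Plin5 rose by 1.84 in KO and 2.01 in WT, Angptl4, an inhibitor of lipoprotein lipase, by 2.37 and 2.10, and Pdk4, an inhibitor of pyruvate oxidation, by 1.65 and 1.62. Under dexamethasone 4 were lower in KO than in WT and none higher, with a median of -0.36, beside 1% of all probes called lower and a median of 0.05. They were the mitochondrial carrier Ucp3 (-0.99), the carnitine enzymes Cpt1a (-0.85) and Cpt1b (-0.29), and the carnitine carrier Slc25a20 (-0.82). Under vehicle none of the 21 was called between genotypes, beside 0.235% of all probes.

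Of 19 genes of peroxisomal fatty acid oxidation, 1 rose and 1 fell with dexamethasone in KO, and 3 rose and 1 fell in WT, beside 10.4% and 12% of all probes called. Their medians were 0.01 in KO and 0.13 in WT. Eci2, an enoyl-CoA isomerase, rose by 0.61 in KO and 0.78 in WT. Ehhadh, the bifunctional enzyme, rose by 0.93 in WT and was 3.31-fold lower in KO under dexamethasone (-1.73, SE 0.16, adjusted p 6.47e-05). The difference between the dexamethasone responses of Ehhadh was not called. Ehhadh is a known PPAR-alpha target in mouse liver, as Acot1 is, and any part of PPAR-alpha in these differences was not tested.

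**Figure D5:**
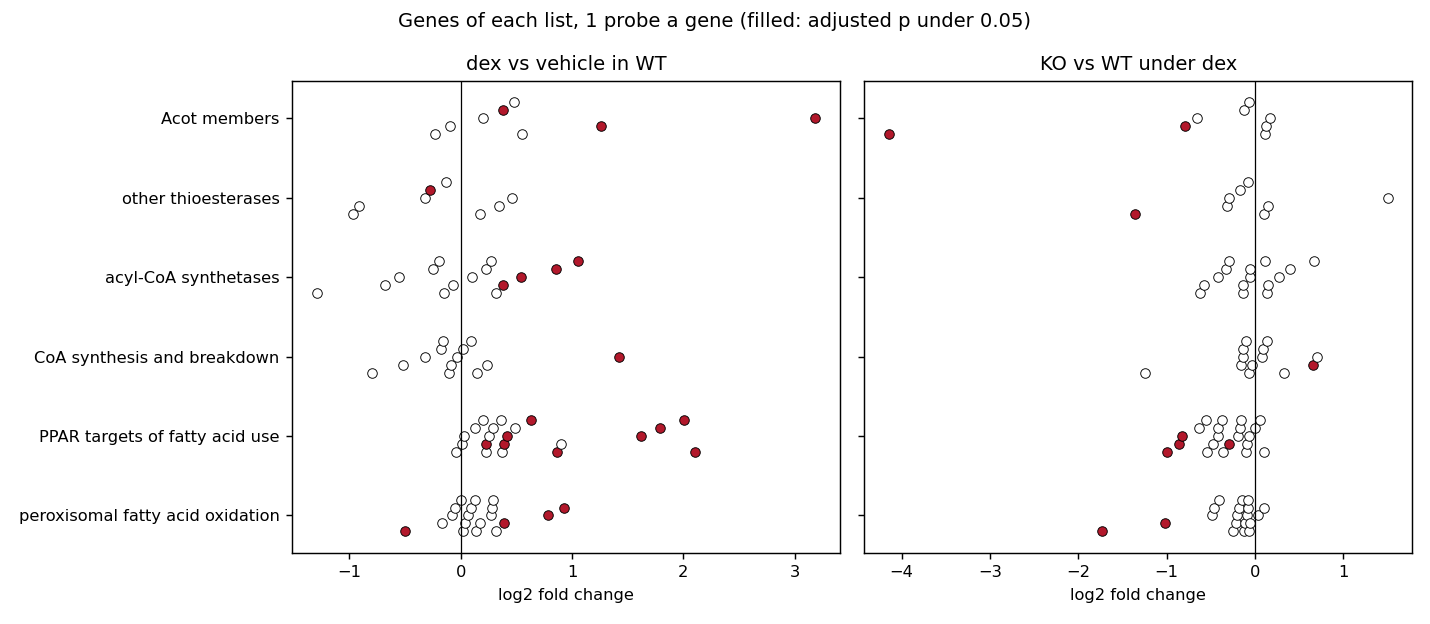
Log2 fold change (x axis) of each gene (points, 1 probe a gene) in the 8 thioesterases and the 5 other lists (y axis), for dexamethasone against vehicle in WT and for KO against WT under dexamethasone. Filled points passed an adjusted p of 0.05, and Acot1 is the farthest point of the plot in both comparisons, at 3.19 and -4.14.

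The genes whose levels followed each thioesterase most closely over the 16 arrays were found by Pearson correlation, which here includes the differences between groups. For Acot1 they were Tango2 (0.969), Echs1, the mitochondrial short-chain enoyl-CoA hydratase (0.947), and Oat, ornithine aminotransferase (0.943). For Acot2 they were Gpat3, an enzyme of triglyceride synthesis (0.955), Lgals4 (0.918) and Gabarapl1, an autophagy gene (0.909). For Acot7 they were Ivd, isovaleryl-CoA dehydrogenase (0.967), the mitochondrial carrier Slc25a29 (0.964) and the peroxisomal membrane gene Pxmp2 (0.959). For Acot4 they were Olfr772 (0.963), Pde1c (0.961) and Olfr95 (0.961), and Acot3 was led by Morc4 (0.946). For Acot9 they were Hmces (0.955), Clp1 (0.953) and Tbk1 (0.949). Acot8 and Acot13 had no gene above 0.870, with Snrnp25 and Mrpl55 the closest (0.870 and 0.845).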

How the data were processed

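Agilent 4x44K arrays of 16 mice were used, grouped by genotype and treatment as the sample titles give them. Per the file headers, Agilent Feature Extraction wrote the intensity of each spot (linear, background subtracted) in the authors' scanner output. The authors also deposited log2 values for these arrays in 1 table, whose steps no source used here describes. Precision is limited by having 4 arrays in each group.

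Spots of controls and flagged outliers were dropped and repeated spots of a probe averaged. Signals were put on the log2 scale relative to the array's 75th percentile, and a probe was tested if 4 or more arrays had it well above background. Of 26382 probes with a RefSeq accession, 24844 were named through a RefSeq gene table; promoter windows came from RefSeq as well, and all 3 promoters shown matched by symbol. The gene table served for names and gene order only, since its build is not the arrays' own. A fit of 4 group means to all 16 arrays was made with R 4.3.3 and limma 3.58.1 (eBayes, two-sided, Benjamini-Hochberg adjustment over 32397 probes, threshold 0.05). Each p-value sets a difference in group means against 1 spread per probe, estimated within all 4 groups together. That spread is drawn by eBayes towards those of the other probes. It does not describe a single group: the SD of Acot2 was 0.19 in dexamethasone-treated KO and 0.73 in dexamethasone-treated WT muscle. For a gene with several probes the brightest was used for counts. The fit was tested on simulated data with independent noise on each array and no slide effect. That test therefore cannot speak to the correlation between arrays of the same slide.

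Genes named are the 8 thioesterases with all probes, Klf15, every measured gene of a list of other thioesterases, up to 4 called genes with the smallest p per list and comparison, and the 3 genes most correlated with each thioesterase; 1 such gene is not reported here. The members and lists were chosen with earlier results of these data known. Alternatives were other scalings, background correction, filters, probe rules and fits, slide and replicate number as blocks, and leaving out arrays; 2 alternatives, a normexp correction on the median signal and a slow-muscle covariate, were chosen after seeing the data.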

Additional observations from a re-analysis of the deposited data

Results flagged for a closer look

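Of 36 sets of 4 arrays, 1 for each probe and group, 2 held an array that lay far from the other 3 for its range; chance gives about 1 in 20 such sets. Acot1 on KO vehicle replicate 4 was at -2.08, against -3.50 to -3.26 on the other vehicle-treated KO arrays. Acot13 on the same array was at 6.50, against 6.27 to 6.28. That array also had the highest slow-muscle and adipocyte list medians of its group, 1.01 for each. It was highest of its group in the neutrophil (-0.68), erythroid (-0.12) and nerve and Schwann cell (0.52) lists too. In the macrophage list it was lowest (-0.10), and in the fast-muscle and endothelial lists neither highest nor lowest. The part of these in the values was not tested. Without KO vehicle replicate 4 the change of Acot1 with dexamethasone in KO was 1.13, and the gene was still not called.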

How the results depend on the processing

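Of 1578 values of single probes under the alternatives, 1530 kept their direction where called and their side of the threshold, 14 without a call moved by more than the replicate spread, 11 passed newly and 23 no longer passed, and none that was called reversed. Leaving out 1 array gave 1 to 3 called thioesterases under dexamethasone in WT, 1 of them without WT vehicle replicate 2, and left the other counts at 0 in KO, 0 under vehicle, 2 under dexamethasone, 2 averaged and 0 for the interaction. With slide as a fixed block the count was 1 in KO (Acot4) and 1 in WT (Acot1) with dexamethasone, and 0 for KO against WT under dexamethasone and averaged. With slide as a random block it was 1 in KO (Acot9), 2 for KO against WT under vehicle (Acot1, Acot7) and 1 for the interaction (Acot1). With only the groups compared it was 1 in WT and 1 for KO against WT under dexamethasone (Acot1 in each), and with the slow-muscle covariate 1 under vehicle (Acot1). The causes were not tested.

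Over all probes, 3373 were called with dexamethasone in KO, 3873 in WT, 76 between genotypes under vehicle, 904 under dexamethasone, 525 averaged and 0 for the interaction. Median scaling gave 1893 in KO, 39, 269 and 192 between genotypes, and quantile normalization 574 under dexamethasone. The slide as a fixed block gave 1147 in WT, 22, 53 and 83 between genotypes, and as a random block (correlation 0.562) 6644 in KO, 685, 1640 and 1569 between genotypes and 716 for the interaction. Only the groups compared gave 2293 in WT, 35 under vehicle and 158 under dexamethasone. Under dexamethasone and averaged, between genotypes, the brightest probe per gene gave 461 and 337 and the mean of a gene's probes 458 and 336, both with fewer tests, and leaving out both arrays with high neutrophil markers gave 491 and 304. The interaction had 1 call with normexp, 3 with the deposited values and 14 with probes above background on all arrays. Leaving out 1 array gave 2376 to 3567 in KO, 2345 to 3938 in WT, 47 to 89 under vehicle, 523 to 971 under dexamethasone, 359 to 509 averaged and 0 to 110 for the interaction; the lowest in WT and under vehicle were without WT vehicle replicate 2 (50 under vehicle without replicate 4), the lowest under dexamethasone without KO dexamethasone replicate 3 (556 without replicate 2), and the 110 without KO vehicle replicate 4.

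Same-numbered arrays of different groups did not deviate together (correlations -0.66 to 0.65, median -0.03, 24 pairs), and 1 of 16 arrays correlated best with its own number, so the numbers were not taken as pairs. The replicate block gave 532 probes under dexamethasone and 276 averaged, and ended the call of Acot9 in WT. Arrays of the same slide correlated at 0.18 to 0.79 (11 pairs). The planned normexp on the mean signal was not run and the median signal was used, a choice made after seeing the data. Signal near background limits Acot3 and the second Acot4 probe.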
